A study of Nicotiana tabacum with 6 samples.

Results

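Leaf transcripts of tobacco plants that had lost either photosystem were compared, as a single group, with those of wild-type plants. The mutant group held 4 arrays, 2 from plants in which the plastid gene psaA was deleted and 2 from plants in which the plastid gene psbA was deleted, and the wild type held 2 arrays, which together are all 6 arrays of the series. Members were taken by label alone, and every probe set entered except 108 manufacturer's controls and 63 reporter probe sets, which left 10038 of 10209. All plants were Nicotiana tabacum of the cultivar spelled Petit Havanna. They were kept in tissue culture bottles in dim light on a daily cycle of 16 h light and 8 h dark, and leaves were taken 2 to 3 weeks after subculture. The growth text names selection medium with 500 mg/L of spectinomycin for all 6 samples. Spectinomycin blocks translation in plastids, and the text does not settle whether wild type grew on it too, so a response to the drug and a response to the deletions cannot be told apart here. Tobacco RNA, 5 ug per array, was labelled and hybridised to a tomato GeneChip, so a tobacco transcript is seen only where it resembles the tomato probe.

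Photosystem I and photosystem II are the pigment-protein complexes of the thylakoid membrane that turn absorbed light into electron flow. The psaA gene encodes a core protein of photosystem I and psbA encodes the D1 protein of photosystem II, and both genes lie in the plastid genome, whereas the antenna proteins, the oxygen-evolving proteins and the enzymes of pigment synthesis are encoded in the nucleus and imported. Signals from the plastid are known to alter nuclear transcript levels. No probe set carries a symbol of either deleted gene, so the deletions themselves were not checked on the arrays. What the pooled comparison asks is at which probe sets the mean of the 4 mutant arrays differs from wild type. A call does not require that each mutant taken alone differs.

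The deposited values are on a log scale, read here as base 2, and each probe set had been centred on its median over the 6 arrays. A value is therefore a level relative to that median, and neither the signal level nor its distance from background can be read from it, so the leaf origin of the RNA could not be checked against the levels of leaf genes. Where the arrays of one mutant fall between those of the other mutant and wild type, centring makes that pair mirror each other about 0. The standard deviation, over probe sets, of the difference between replicate arrays was 0.205 (psaA deletion), 0.229 (psbA deletion) and 0.208 (wild type) on the log2 scale. An array of the psbA deletion differed from one of the psaA deletion by 0.308 to 0.312, and a mutant array from a wild-type array by 0.358 to 0.366. The labels call the arrays biological replicates without saying whether they came from separate plants, so p-values measure only the spread between these samples.

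In the pooled mutants 6 of 8 measured genes of the photosynthetic light reactions and 4 of 10 of carotenoid synthesis fell, beside 4.29% of all probe sets. Among the genes named by symbol, ca2 (5.38-fold) and the catalase gene CAT2 (3.01-fold) fell most. Genes that rose included the beta-1,3-glucanase gene GluB (2.27-fold) and the S-adenosylmethionine synthetase gene SAM1 (1.97-fold). Of the 10038 probe sets, 716 were called at an adjusted p under 0.05 (7.13%) by limma with Benjamini-Hochberg adjustment. Of these, 431 were lower (4.29% of the 10038) and 285 were higher (2.84%), and 1983 probe sets had an unadjusted p under 0.05. The median called log2 difference was -0.74 among the falls and 0.62 among the rises. At least a 2-fold difference was seen at 140 of the calls (1.39%), 111 lower (1.11%) and 29 higher (0.289%). Among the 20 largest called differences 18 were falls. A difference of at least 4-fold was found at 5 called probe sets, all lower, and at 0 higher ones.

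At each of the 716 calls, all 4 mutant arrays lay on one side of both wild-type arrays. Such a separation was common on these arrays, at 3106 probe sets (30.9%), with all mutant arrays above at 1670 (16.6%) and below at 1436 (14.3%), and 2390 of them were not called. The gap between the nearest mutant array and the nearest wild-type array had a median of 0.50 at the called falls and 0.40 at the called rises. The calls depended on having both wild-type arrays, and far fewer were made without either of them than the 530 to 602 made without a mutant array. Leaving out 1 wild-type array leaves a single array in that group. The median SE then rose from 0.127 to 0.166, so a call can be lost without a change in the difference. With each of the 6 arrays left out in turn, 126 of the 716 calls passed every time. Setting the spiked poly-A control transcripts equal on all arrays put the median of all probe sets at -0.33 in place of 0.02, a shift of -0.35, and on that scale 1769 probe sets were called lower and 51 higher, so directions below are relative to the typical probe set.

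Only 909 of the tested probe sets have a tomato gene symbol in the platform annotation, which dates from 2007, and 207 of those symbols are LOC numbers, and 648 of the 716 calls have no symbol at all. Judged at 1 probe set per gene, 48 of 626 genes with another symbol were called (7.67%), 31 lower and 17 higher. Roles given below are textbook roles of the tomato gene so named.

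**Figure D1:**
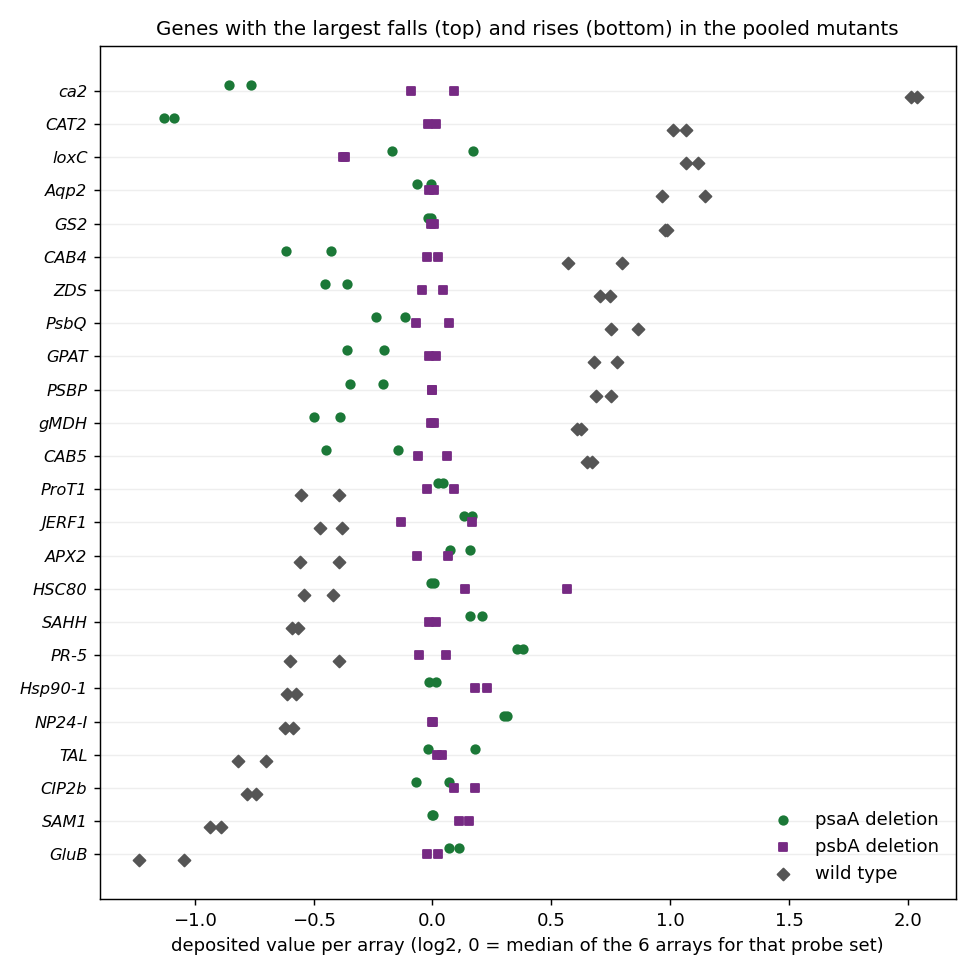
Deposited log2 values per array (horizontal axis, 0 is the median of the 6 arrays for that probe set) for the 12 genes with the largest called falls and the 12 with the largest called rises. Each point is 1 array: circles are the psaA deletion, squares the psbA deletion and diamonds wild type. In every row, as the naming rule requires, the 4 mutant arrays lie on one side of both wild-type arrays. In ca2 and CAT2 the psaA arrays lie further from wild type than the psbA arrays, while in GS2, Aqp2 and GluB the mutants' arrays lie close together.

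Most measured genes of the light reactions fell. Of 8 in this list, 6 were called lower and 0 higher, beside 4.29% of all probe sets called lower, and the list's median log2 difference was -0.79 beside 0.02 over all probe sets. In RNA from whole leaves, fewer cells of a type and less of a transcript per cell cannot be told apart. The extrinsic proteins PsbO, PsbP and PsbQ stabilise the manganese cluster of photosystem II that splits water. The relative level of PsbQ was -0.24 and -0.12 on the psaA arrays and 0.07 and -0.07 on the psbA arrays, against 0.86 and 0.75 in wild type. That is a 1.86-fold fall (log2 difference -0.89, SE 0.116, adjusted p = 0.00241 by limma, n = 4 and 2). PSBP stood at -0.21, -0.35, 0.00 and 0.00 on the mutant arrays, against 0.69 and 0.75 in wild type, and fell by 0.86 (adjusted p = 0.0046). PSBO fell by 0.61 (adjusted p = 0.00894), with mutant arrays from -0.15 to 0.03, against 0.53 and 0.54 in wild type. All 3 subunits had their mutant arrays clear of the wild-type pair. PSBR, a further small protein of the complex, gave -0.21 with adjusted p = 0.374.

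Antenna genes encode the chlorophyll-binding proteins that collect light. CAB4, of the photosystem II antenna, stood at -0.43 and -0.62 on the psaA arrays and -0.02 and 0.02 on the psbA arrays, against 0.80 and 0.57 in wild type, a 1.92-fold fall (log2 difference -0.94, SE 0.188, adjusted p = 0.0178). CAB5 fell by 0.81 (adjusted p = 0.0102). CAB6A, of the photosystem I antenna, gave -0.51 with adjusted p = 0.0981, and its psaA arrays (-0.33 and -0.43) lay below its psbA arrays (-0.05 and 0.05), against 0.19 and 0.44 in wild type. PETE, the gene of plastocyanin, the soluble electron carrier to photosystem I, fell by 0.76 (adjusted p = 0.00371), with mutant arrays from -0.20 to 0.03, against 0.66 and 0.75 in wild type. Without wild-type replicate 1, the light-reaction list kept 2 of its calls, PsbQ and PETE, and the adjusted p of the others reached 0.0557 (PSBP) to 0.196 (CAB4). Without wild-type replicate 2 only PsbQ was called, and the others ranged from 0.0647 (PETE) to 0.105 (CAB5). Quantile normalization of the deposited values, which were already centred, ended the call of CAB4 (0.0616) and brought the list's median to -0.65.

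Carotenoids are plastid pigments that collect light and protect the photosystems from excess of it. Of 10 measured genes of the pathway, 4 were called lower and 0 higher, beside 4.29% of all probe sets called lower and 2.84% called higher, with a median log2 difference of -0.53. The 4 lie along the route from the first committed step to the lutein branch. PSY2, a phytoene synthase, fell by 0.72 (adjusted p = 0.00941). PDS, the phytoene desaturase that follows it, fell by 0.55 (adjusted p = 0.0344). ZDS, the zeta-carotene desaturase, stood at -0.45 and -0.36 on the psaA arrays and 0.04 and -0.04 on the psbA arrays, against 0.75 and 0.70 in wild type, a 1.90-fold fall (log2 difference -0.93, SE 0.153, adjusted p = 0.00721). CRTL-E-1, the lycopene epsilon-cyclase, fell by 0.52 (adjusted p = 0.0172). The other phytoene synthase gene, Psy1, whose product serves fruit in tomato, gave 0.23 with adjusted p = 0.375.

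VDE, whose enzyme turns violaxanthin into zeaxanthin in strong light, has 2 probe sets that disagreed in size. The one taken by the naming rule gave -0.42 (adjusted p = 0.105). The other stood at -0.58 and -0.53 on the psaA arrays and 0.01 and -0.01 on the psbA arrays, against 1.08 and 1.16 in wild type, a 2.64-fold fall (log2 difference -1.40, SE 0.187, adjusted p = 0.00278). In 3 further genes the mean of the mutants was lower, but mainly through the psaA deletion, and the pooled test did not call them. CrtR-b1, a carotenoid hydroxylase, differed from wild type by -0.07 in the psbA deletion and by -1.01 in the psaA deletion. ZEP, the zeaxanthin epoxidase, gave -0.24 in the psbA deletion and -0.80 in the psaA deletion, and the cleavage dioxygenase CCD1B gave -0.27 and -0.85 in the same order. In these 3 the mutants differed from each other (psbA minus psaA 0.93, 0.55 and 0.58, with adjusted p of 0.0104, 0.04 and 0.0228).

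Plastid isoprenoid precursors feed carotenoids and the chlorophyll side chain. HDS, an enzyme late in that pathway, fell by 0.74 (adjusted p = 0.00453). It was the only call among 4 genes of this list, beside 4.29% of all probe sets called lower. DXS, at its entry, gave -0.13 with adjusted p = 0.6, and DXR, the next step, gave -0.60 with adjusted p = 0.0877. POR2, a protochlorophyllide oxidoreductase, is the only measured gene of the chlorophyll list and gave -0.32 (adjusted p = 0.139), with mutant arrays from -0.09 to 0.03, against 0.16 and 0.42 in wild type. GSA-AT, which makes the chlorophyll precursor aminolevulinate, was in no list and is named after its value was seen: it fell by 0.76 (adjusted p = 0.00341), with mutant arrays from -0.13 to 0.04, against 0.73 and 0.65 in wild type. Without wild-type replicate 1 the second VDE probe set was called, while PSY2, PDS, ZDS, CRTL-E-1 and HDS had adjusted p from 0.0721 (HDS) to 0.271 (PDS) and GSA-AT had 0.0568. Without wild-type replicate 2 the same 5 ran from 0.0512 (HDS) to 0.162 (PDS), with 0.0528 for the second VDE probe set, while GSA-AT was still called. PDS was also lost without either psaA array (0.0766 and 0.0628) and with quantile normalization (0.0754).

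The largest named fall was that of ca2 (gene ID 543803). Its relative level was -0.76 and -0.86 on the psaA arrays and 0.09 and -0.09 on the psbA arrays, against 2.01 and 2.03 in wild type. This is a 5.38-fold fall in the pooled mutants (log2 difference -2.43, 95% interval -3.00 to -1.85, SE 0.255, adjusted p = 0.000813). Both mutants were far below wild type, and the psaA deletion was the lower, by 0.81 (adjusted p = 0.0059). A second of the gene's 4 probe sets gave -2.70 (adjusted p = 0.000697), another gave -0.85 (adjusted p = 0.0365) with wild-type arrays far apart at 0.38 and 1.24, and the last gave -0.16 (adjusted p = 0.51). The median over the 4 probe sets was -1.64.

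CAT2 (543585), a catalase that breaks down hydrogen peroxide, stood at -1.13 and -1.09 on the psaA arrays and 0.02 and -0.02 on the psbA arrays, against 1.07 and 1.01 in wild type. It fell 3.01-fold in the pool (log2 difference -1.59, SE 0.332, adjusted p = 0.022), and the mutants differed from each other by 1.11 (95% interval 0.87 to 1.34, adjusted p = 0.00103). Its pooled call was lost with quantile normalization (-1.37, adjusted p = 0.0834). GS2 (543998), the plastid glutamine synthetase that in leaves recovers the ammonia of photorespiration, was almost level in the mutants, at -0.01, -0.02, -0.01 and 0.01, against 0.98 and 0.98 in wild type. It fell 1.98-fold (log2 difference -0.99, SE 0.0952, adjusted p = 0.00071), and the interval of psbA minus psaA was -0.22 to 0.24. Of the other 2 nitrogen genes 0 were called. A malate dehydrogenase gene, gMDH, fell by 0.84 (adjusted p = 0.015, and 0.0532 with quantile normalization).

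Several other falls were at genes that were the single calls of their lists, beside 4.29% of all probe sets called lower. loxC, a plastid lipoxygenase that in tomato supplies short-chain leaf volatiles, stood at 0.17 and -0.17 on the psaA arrays and -0.37 and -0.38 on the psbA arrays, against 1.12 and 1.07 in wild type. It fell 2.43-fold (log2 difference -1.28, SE 0.16, adjusted p = 0.00198) and was the only call among 12 wound and jasmonate genes, whose median was -0.02. Aqp2, an aquaporin, stood at 0.00, -0.07, 0.00 and -0.02 on the mutant arrays, against 1.14 and 0.97 in wild type, a 2.11-fold fall (log2 difference -1.07, SE 0.103, adjusted p = 0.000697). Its mutants agreed closely, with psbA minus psaA between -0.22 and 0.28. GPAT, a glycerol-3-phosphate acyltransferase of membrane lipid synthesis, fell by 0.87 (adjusted p = 0.00464).

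AGPL3, a large subunit of the starch-making ADP-glucose pyrophosphorylase, fell by 0.74 (adjusted p = 0.0419) as the only call among 21 sugar and starch genes, but its wild-type arrays stood far apart at 1.02 and 0.32, and of the 6 fits that each left out 1 array it passed only in the one without wild-type replicate 2. CHS1, a chalcone synthase, fell by 0.68 (adjusted p = 0.0173) and was the 1 call among 8 phenylpropanoid genes. CycB2, a mitotic cyclin, fell by 0.70 (adjusted p = 0.0339) and was the 1 call among 11 cell cycle genes. The sugar and starch, phenylpropanoid and cell cycle lists had medians of -0.04, -0.08 and -0.09, beside 0.02 over all probe sets. Among 24 cell wall genes the beta-galactosidases TBG6 (-0.54) and TBG7 (-0.63) and the expansin exp9 (-0.55) were called lower and 0 were called higher, beside 4.29% and 2.84% of all probe sets, and the list's median of -0.02 lay beside that of all probe sets. Of the falls in ca2, CAT2, GS2, gMDH, loxC, Aqp2, GPAT, AGPL3, CHS1, CycB2, TBG6, TBG7 and exp9, those of ca2, GS2, loxC and Aqp2 were called with each array left out. Without wild-type replicate 1 the adjusted p of the others was 0.0535 (GPAT) to 0.328 (AGPL3). Without wild-type replicate 2, AGPL3 and CHS1 passed and the rest ran from 0.0767 (GPAT) to 0.321 (CycB2). CycB2, TBG6, TBG7 and exp9 were also lost without 1 or more of the mutant arrays, at adjusted p of 0.05 to 0.0745. These 4 and AGPL3 were lost with quantile normalization as well (0.0541 to 0.0739).

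The rises were led by GluB (543987), a beta-1,3-glucanase gene of the pathogenesis-related group. It stood at 0.11 and 0.07 on the psaA arrays and 0.02 and -0.02 on the psbA arrays, against -1.23 and -1.04 in wild type. This is a 2.27-fold rise (log2 difference 1.18, 95% interval 0.94 to 1.42, SE 0.107, adjusted p = 0.000607), and the 4 mutant arrays spanned less than the wild-type pair. The thaumatin-like genes NP24-I (0.76, adjusted p = 0.00874) and PR-5 (0.68, adjusted p = 0.0278) rose as well. These were the 3 calls among 12 pathogenesis-related genes, beside 2.84% of all probe sets called higher, with 0 called lower, and the list's median was 0.07. PR1b1 gave -0.11 with adjusted p = 0.794.

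In the S-adenosylmethionine cycle, which supplies methyl groups, transcripts of a synthesising and of a recycling enzyme rose. They were the 2 calls among 5 S-adenosylmethionine and polyamine genes, beside 2.84% of all probe sets called higher. SAM1, a S-adenosylmethionine synthetase, stood at 0.00, 0.00, 0.11 and 0.16 on the mutant arrays, against -0.89 and -0.93 in wild type, a 1.97-fold rise (log2 difference 0.98, SE 0.103, adjusted p = 0.000813). SAHH, which breaks down the spent product, rose by 0.67 (adjusted p = 0.00701). The other 3 genes of that list, SAM3, ODC and ADC, gave 0.22, 0.17 and 0.01 and were not called. Of 5 heat shock and chaperone genes 2 were called higher, beside 2.84% of all probe sets. Both are of the Hsp90 family. Hsp90-1 rose by 0.69 (adjusted p = 0.00677) and HSC80 by 0.66 (adjusted p = 0.0466), with psbA arrays of HSC80 far apart at 0.14 and 0.56. Taken alone against wild type, the psaA deletion was not called for HSC80 (0.48, adjusted p = 0.0823). The plastid small heat shock gene HSP21 gave 0.23 and the chaperonin CPN21 gave -0.44, neither of them called in the pooled test. A model that gives each mutant its own mean called CPN21 lower.

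CIP2b, listed here with the light-signalling repressor COP1 and its partners, stood at -0.07, 0.07, 0.18 and 0.09 on the mutant arrays, against -0.78 and -0.74 in wild type, and rose 1.78-fold (log2 difference 0.83, SE 0.108, adjusted p = 0.00243). It was the only call among 10 light-signalling genes, beside 2.84% of all probe sets called higher, with COP1 itself at 0.06 and HY5 at -0.05. TAL, a transaldolase of the pentose phosphate pathway, rose by 0.81 (adjusted p = 0.00257). Of 16 antioxidant genes 2 rose, the ascorbate peroxidase gene APX2 (0.53, adjusted p = 0.0214) and the peroxidase gene TPx1 (0.47, adjusted p = 0.0396), and 2 fell, CAT2 and the dehydroascorbate reductase gene DHAR2 (-0.80, adjusted p = 0.0141), beside 2.84% of all probe sets called higher and 4.29% called lower. With quantile normalization 0 of these 16 were called. Of 41 ethylene genes the signal transducer EIN2 (0.49, adjusted p = 0.0228) and the response factor JERF1 (0.51, adjusted p = 0.0367) rose and 0 fell, a share of calls no larger than over all probe sets (7.13%), with a list median of 0.01. ProT1, a proline transporter, rose by 0.51 (adjusted p = 0.0195).

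Scaling on the poly-A controls bore on the rises. Of the 14 named rises, 3 (GluB, SAM1 and CIP2b) were called on that scale, at 0.84, 0.63 and 0.48, and the other 11 had adjusted p from 0.0652 (TAL) to 0.564 (TPx1), whereas all 25 named falls were called. The same 3 rises were called with each array left out. Without wild-type replicate 1 the other 11 reached adjusted p of 0.0507 (TAL) to 0.309 (HSC80), and without wild-type replicate 2 TAL passed and the rest ran from 0.0882 (ProT1) to 0.246 (PR-5). PR-5, HSC80, JERF1, TPx1, APX2 and EIN2 were also lost without 1 or more of the mutant arrays (0.05 to 0.0816) and with quantile normalization (0.0507 to 0.144). DHAR2, the remaining fall, had adjusted p of 0.0606 without wild-type replicate 1, 0.175 without replicate 2 and 0.0511 with quantile normalization.

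**Figure D2:**
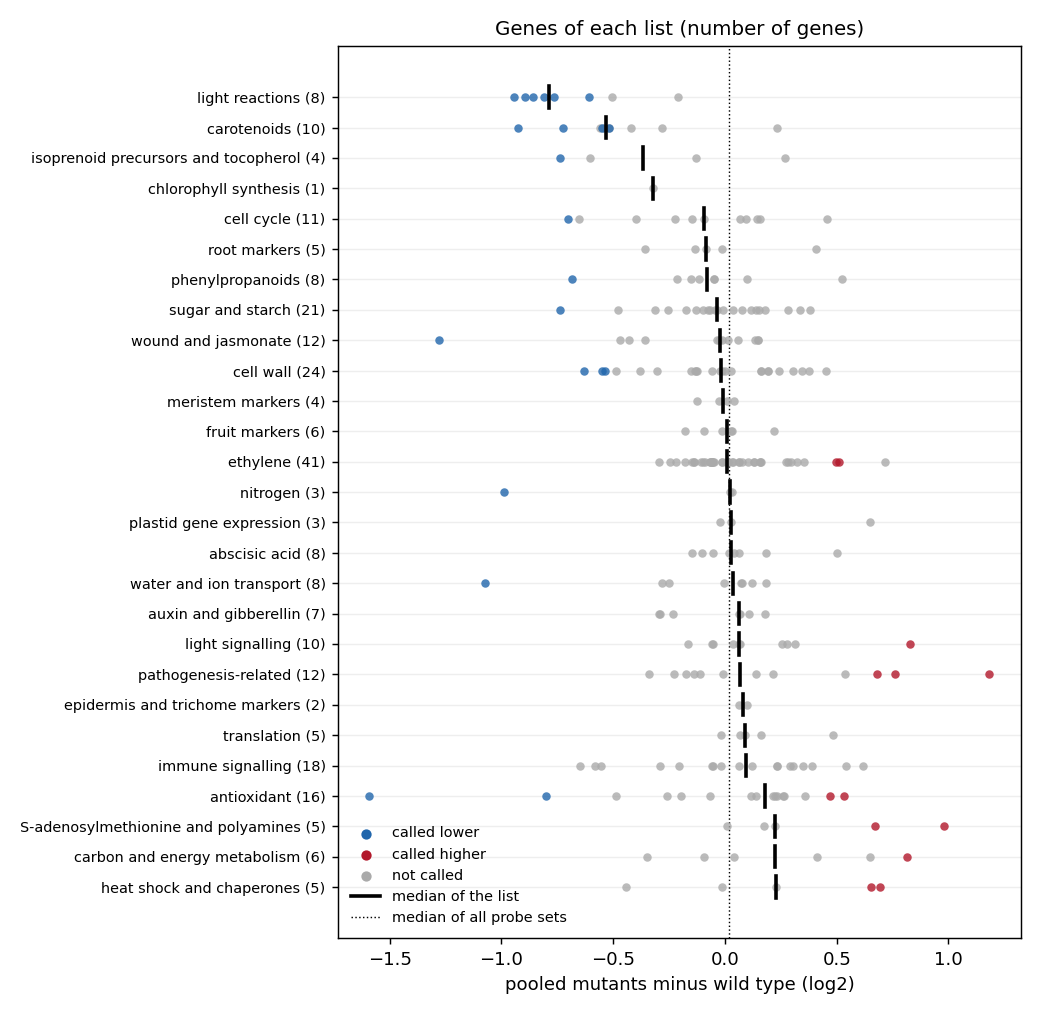
Pooled mutants minus wild type (log2, horizontal axis) for each gene of 27 lists, with the number of genes in brackets; each point is 1 gene, coloured by its call, the bar is the list's median and the dotted line the median of all probe sets. The 8 light-reaction genes all lie left of the dotted line with a median of -0.79, followed by the 10 carotenoid genes at -0.53, while most other medians lie near 0.

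Over the 27 lists with a measured member, 35 of 259 genes were called, 22 lower and 13 higher. Of all genes with a symbol, these 259 included, 7.67% were called. The lists were chosen with earlier results of these data known, so the shares describe the lists and test nothing. In the model that gives each mutant its own mean (3 groups), 68 of the 259 genes were called. The share there of 11.8% counts all probe sets rather than genes. Lists with 0 calls in the pooled test were immune signalling (18 genes), abscisic acid (8), auxin and gibberellin (7), translation (5) and plastid gene expression (3). In the 3-group model the immune list had 3 genes called higher and 3 lower, MPK3 and MKK4 among them, beside 5.31% and 6.51% of all probe sets. In that model TAS14, eIF-5A3 and DEM2, each 1 gene of its list, were called higher, and the auxin and gibberellin list had 0 calls. The genes of these lists nearest to a call in the pooled test were MKK4, a mitogen-activated kinase kinase (0.54, adjusted p = 0.063), the dehydrin gene TAS14 (0.50, adjusted p = 0.0668), the auxin response gene IAA2 (-0.29, adjusted p = 0.315), the translation factor gene eIF-5A3 (0.48, adjusted p = 0.0539) and DEM2 (0.65, adjusted p = 0.0926). Markers of other tissues were measured in 4 lists and none was called in the pooled test: meristem (4 genes, -0.12 to 0.04), root (5 genes, -0.36 to 0.41), epidermis and trichomes (2 genes, 0.06 and 0.10) and fruit (6 genes, -0.18 to 0.22). The genes with the smallest p there were WUS (-0.12), Nramp2 (0.41, adjusted p = 0.0765), MTS1 (0.10) and RIN (-0.18). The 3-group model called 2 of the 5 root markers, Nramp2 higher (0.41, adjusted p = 0.0386) and NRAMP3 lower (-0.36, adjusted p = 0.049), and poly-A scaling called 1 root and 1 fruit marker lower. Their part in the other results was not tested.

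Called genes outside these lists and the 12 largest on each side are named after their values were seen. Among the falls, Fad7, a plastid fatty acid desaturase, gave -0.68 (adjusted p = 0.00899), the malate dehydrogenase gene chMDH -0.63 (adjusted p = 0.0132), the beta-amylase gene BMY3 -0.60 (adjusted p = 0.029), the Clp protease subunit gene CLPP2 -0.49 (adjusted p = 0.0231) and SPE4 -0.78 (adjusted p = 0.00815). A second BMY3 probe set gave -0.90 and was called, and another gave -0.19 and was not. Among the rises, the enolase gene PGH1 gave 0.48 (adjusted p = 0.0226), the metacaspase gene MCA1 0.45 (adjusted p = 0.0426) and ACT 0.49 (adjusted p = 0.0266). Without wild-type replicate 1 Fad7 alone of these 8 was called, and without wild-type replicate 2 none was (adjusted p from 0.053 for SPE4 to 0.224 for ACT). With poly-A scaling the 3 rises had adjusted p of 0.501 to 0.635. They were also lost without 1 or more of the mutant arrays, at 0.0519 for ACT, 0.0551 for PGH1 and 0.064 to 0.0925 for MCA1. Among the falls BMY3 was lost without psbA replicate 1 (0.0584) and CLPP2 without psaA replicate 1 (0.0564) and psaA replicate 2 (0.05). Quantile normalization ended the calls of ACT, BMY3, CLPP2, MCA1 and PGH1 (0.0535 to 0.09).

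Of the 20 largest called differences, 16 were at probe sets with no symbol, and 2 of the ca2 probe sets were among the rest. The largest fall was at LesAffx.3394.1.S1_at, with -0.05 and 0.05 on the psaA arrays and -1.08 and -1.09 on the psbA arrays, against 2.17 and 2.15 in wild type (log2 difference -2.70, 6.51-fold, adjusted p = 0.00165). Les.3242.3.S1_at followed among those without a symbol at -2.22 (adjusted p = 0.000472). The largest called rises were 1.52 at Les.2832.1.S1_at (adjusted p = 0.0184), where the psbA arrays (-0.05 and 0.05) lay between the psaA arrays (1.03 and 0.93) and wild type (-1.19 and -0.88), and 1.50 at LesAffx.42701.1.S1_at (adjusted p = 0.000405), where the mutant arrays ran from -0.06 to 0.21, against -1.32 and -1.50 in wild type.

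How alike the mutants were at the pooled calls was measured by psbA minus psaA, which uses no wild-type array. Over all probe sets 404 differed between the mutants (4.02%), with the psbA deletion the higher at 181 (1.8%) and the lower at 223 (2.22%), and of the 716 pooled calls 37 did (5.17%). The pooled spread contains the difference between the mutants, so probe sets at which they differ strongly are held back from being called, and this share is low by construction. In a model with 3 groups, where that difference leaves the spread, the mean of the mutants differed from wild type at 1186 probe sets (11.8%), 653 lower (6.51%) and 533 higher (5.31%). These include all 716, and 154 of them differed between the mutants (13.0%). The comparisons of each mutant with wild type share both wild-type arrays. Taken alone, the psaA deletion was called higher at 475 probe sets (4.73%) and lower at 614 (6.12%), and the psbA deletion higher at 548 (5.46%) and lower at 582 (5.8%). Of the 716 pooled calls, 588 were called in each mutant in the same direction (82.1%), beside 606 of all probe sets (6.04%). The 588 were 370 of the 431 falls (85.8%) and 218 of the 285 rises (76.5%). The pooled and the separate tests use the same arrays, so this overlap is no independent check.

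**Figure D3:**
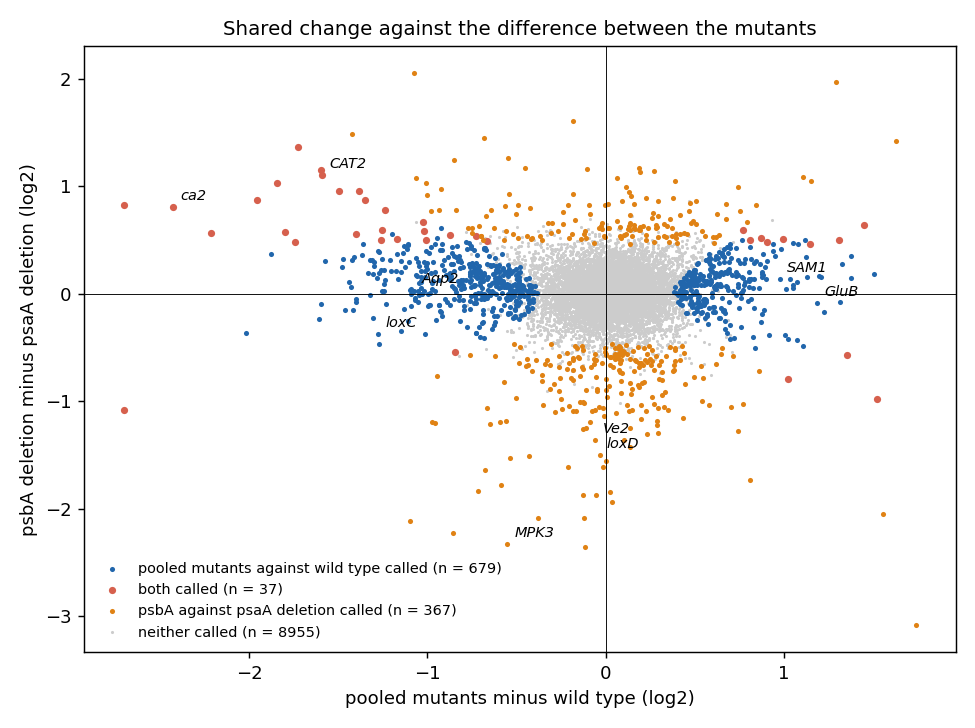
Each point is 1 of 10038 probe sets, placed by pooled mutants minus wild type (horizontal axis, log2) and by psbA deletion minus psaA deletion (vertical axis, log2), coloured by which of the comparisons called it. The pooled calls spread to the left and right close to the horizontal line, 37 of them are called in both comparisons, and MPK3, loxD and Ve2 lie far below the line near a pooled difference of 0.

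Which mutant lay further from wild type was counted separately for falls and rises. Among the 431 called falls, both psaA arrays lay further from wild type than both psbA arrays in 220 (51.0%), the reverse held in 54 (12.5%), and the arrays interleaved in 157 (36.4%). Among the 285 called rises the psbA arrays lay further out in 136 (47.7%), the psaA arrays in 52 (18.2%), and 97 interleaved (34.0%). Over all probe sets the mutants' arrays did not interleave at 4795 (47.8%), beside 462 of the 716 calls (64.5%). In the 3-group model only the mutant means were compared, which sets no interleaved cases apart. By that looser measure the psaA deletion was further from wild type at 442 of 653 falls (67.7%) and the psbA deletion at 363 of 533 rises (68.1%). The order depended on the scaling. With the poly-A controls set equal, the 3-group model called a different set, 4401 falls and 123 rises. In that set the psbA deletion was further from wild type at 83.8% of falls and the psaA deletion at 62.6% of rises. The order is therefore relative to the typical probe set of each mutant. The poly-A controls themselves stood 0.46 higher than wild type on the psbA arrays and 0.23 higher on the psaA arrays.

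Other genes differed between the mutants with the wild-type mean in between. Of the 404 probe sets that differed between the mutants, 243 had mutant means on opposite sides of wild type, the psaA deletion being above in 169 and the psbA deletion in 74. This is a matter of the sign of the means: only 28 of the 243 were called against wild type in both mutants. Of the 243, 0 were called in the pooled test by limma, and 0 had an unadjusted pooled p under 0.05. Opposite signs draw the pooled mean toward 0 and the gap widens the pooled spread, so these counts follow largely from how the 243 were picked. The mean of the mutants in the 3-group model was called at 17. The 243 hold 29 genes with a symbol other than a LOC number. The largest was MPK3, a mitogen-activated protein kinase of defence signalling, at -1.70 and -1.74 on the psbA arrays and 0.56 and 0.66 on the psaA arrays, against -0.08 and 0.08 in wild type. Its psbA minus psaA difference was -2.33 (5.03-fold, adjusted p = 5.18e-05), while its pooled difference was -0.55 (SE 0.677, adjusted p = 0.731). A second MPK3 probe set gave -1.88 between the mutants, and another gave -0.35 with adjusted p = 0.167.

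The next 5 named by the same rule were also higher in the psaA deletion than in the psbA deletion. loxD, the lipoxygenase of jasmonate synthesis, differed by -1.50 (psbA minus psaA), Ve2, a receptor-like protein of Verticillium resistance, by -1.36, CHI14, a chitinase, by -1.25, Wfi1, an NADPH oxidase, by -1.22 and Rab1A, a small GTPase, by -1.09. Their pooled differences from wild type were -0.03, -0.06, 0.14, 0.29 and -0.08, with adjusted p from 0.748 to 0.982, and those of CHI14 and Wfi1 turned to -0.21 and -0.06 with poly-A scaling. Taken alone against wild type, the psbA deletion was not called for CHI14 (-0.49, adjusted p = 0.159) or Wfi1 (-0.32, adjusted p = 0.266). The lipoxygenase genes were unlike: loxC was below wild type in both mutants, at -1.46 in the psbA deletion and -1.09 in the psaA deletion, whereas loxD was at -0.78 in the psbA deletion and 0.72 in the psaA deletion.

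Control probe sets gave the following values beside these results. The difference between the 3' and 5' probe sets, a measure of RNA integrity, was higher in the mutants than in wild type by 0.07 for actin, 0.10 for gapdh, 0.11 for ef1a and 0.31 for ubiquitin, and gave -0.05 for GlutTrans and -0.08 for PhyB2. Those of actin, gapdh and ef1a were 0.27 to 0.31 in the psaA deletion and -0.13 to -0.08 in the psbA deletion. The median level of the actin probe sets was 0.58 higher in the mutants and that of ubiquitin 0.56 higher, gapdh, ef1a and GlutTrans were 0.08, 0.14 and 0.27 higher, PhyB2 gave -0.05, and hybridisation controls differed by -0.04. The 25S rRNA probe set was 0.74 higher in the mutants, with wild-type arrays at -0.28 and -0.99, and the 17S rRNA probe set gave -0.31. Whether any of these took part in the calls was not tested.

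One reporter probe set stood far outside the range of all others. It gave -0.08 and 0.08 on the psaA arrays and 0.28 and 0.35 on the psbA arrays, against -6.13 and -5.98 in wild type, a log2 difference of 6.21 (74.0-fold). The largest absolute difference among the other 62 reporter probe sets was 0.46. It lay outside the tested probe sets and has no gene in the annotation used here.

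**Figure D4:**
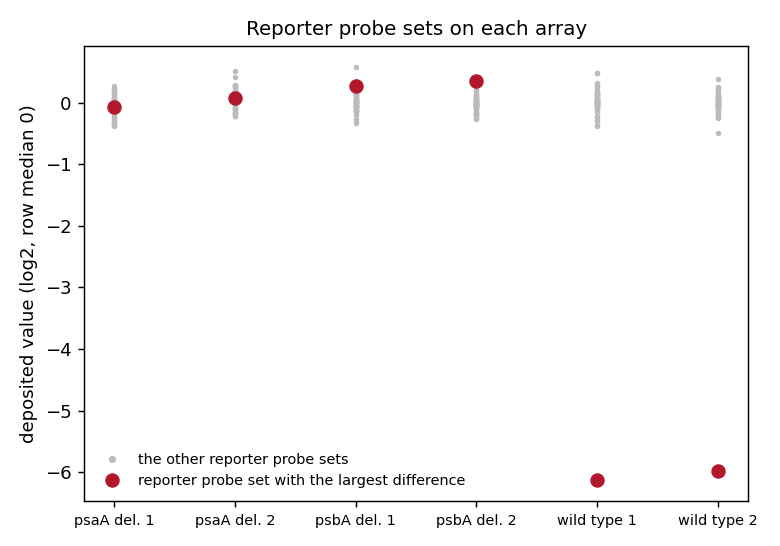
Deposited log2 values (vertical axis) of the 63 reporter probe sets on each array (horizontal axis). The large points mark the 1 probe set that lies between -0.08 and 0.35 on the mutant arrays, against -6.13 and -5.98 in wild type; the small points are the other 62.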

How the data were processed

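The deposited table, a series matrix, holds 1 value per probe set and array. Per the submitters' processing notes the authors used RMA and GCRMA, which correct background, normalize between arrays and summarise probes. The deposited log2 values were made by the authors with one or both, per the submitters' processing notes; versions and which of them are not given in the sources used here. The base is read as 2, the base of either method. Each deposited row is centred on 0, its median over the arrays (tolerance 1e-06), so signal levels are lost. The precision rests on the number of arrays and on the spread between them at each probe set.

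A 2-group linear model, 4 mutant arrays against 2 wild-type arrays, was fitted in limma 3.58.1 under R 4.3.3 (lmFit, eBayes) to 10038 probe sets (4 residual and 5.10 prior degrees of freedom, median SE 0.127). A second model with 3 groups gave each mutant minus wild type, which share the wild-type arrays, and psbA minus psaA. Two-sided p-values were adjusted by Benjamini-Hochberg over all 10038, and an adjusted p under 0.05 is a call. The fit was also run on simulated data in which both mutants changed alike, with independent normal errors. That run did not cover mutants that differ from each other. The 171 control and reporter probe sets were left out of the tests. Plots used matplotlib 3.10.9.

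Gene symbols came from the platform annotation, with 1 probe set per gene (a plain ID before one marked for several transcripts, then ID order). Named were the 12 largest called falls and rises with all mutant arrays on one side of both wild-type arrays, each list's called genes or else its smallest p, the 6 largest opposite differences and 2 probe sets without a symbol on each side. The members, lists and rule were chosen with earlier results of these data known. Lists are described by counts and medians. None of the tomato gene IDs (0) occurs in the tobacco gene table, so positions and sequences are not used here. Replicate numbers did not pair the arrays: the correlations of replicate differences between groups were 0.023, -0.0029 and -0.0081. Alternatives covered the model, call rule, scaling, moderation, probe sets, threshold, replicate block and leaving out each array.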

Additional observations from a re-analysis of the deposited data

Results flagged for a closer look

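In 3 named genes 1 array stood apart from the other mutant arrays, its gap to the next exceeding Dixon's 95% critical share of the range of the 4. These were JERF1, lowest on psbA replicate 1 (0.886 of the range), Nramp2, highest on psbA replicate 2 (0.919), and CHS1, lowest on psbA replicate 2 (0.832). Chance gives this in about 1 in 20 groups of 4 arrays of 1 kind, and many named genes were examined, so some such genes arise by chance. The 4 arrays here come from both mutants, so that share holds only roughly.

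In 9 of the genes named by the rule the difference from wild type differed between the mutants by limma's test of psbA minus psaA. It was 0.81 for ca2 and 1.11 for CAT2, which fell in both mutants, and -0.56 for DEM2, which gave 0.37 in the psbA deletion and 0.93 in the psaA deletion. For genes with the mutants on opposite sides of wild type it was -2.33 (MPK3), -1.50 (loxD), -1.36 (Ve2), -1.25 (CHI14), -1.22 (Wfi1) and -1.09 (Rab1A). Of the further genes given in the text, 5 differed too, by 0.93 (CrtR-b1), 0.55 (ZEP), 0.58 (CCD1B), 0.56 (the second VDE probe set) and -0.96 (ADC). Among the 4 probe sets without a symbol 3 did, by -1.08 (LesAffx.3394.1.S1_at), 0.56 (Les.3242.3.S1_at) and -0.98 (Les.2832.1.S1_at).

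Outside the tested probe sets, 1 of 63 reporter probe sets was 6.21 higher on the log2 scale in the mutants than in wild type.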

How the results depend on the processing

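The main count was 716 calls, 285 higher and 431 lower (39.8% higher). The 3-group model gave 1186 (533 higher, 653 lower), quantile normalization again 403 (142 and 261), poly-A scaling 1820 (51 and 1769, 2.80% higher), an adjusted p under 0.01 gave 296 (89 and 207), and adding a 2-fold difference gave 140 (29 and 111, 20.7% higher). The other alternatives without a block gave 606 to 733. Leaving out 1 array gave 178 to 602 calls, 38 to 211 higher, 139 to 394 lower and 21.2% to 39.4% higher, lowest without either wild-type array (38 of 179 higher without replicate 1, 39 of 178 without replicate 2). With the replicate number as a block, although the numbers do not pair the arrays, 503 were called, 177 higher and 326 lower, 500 of them among the 716.

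The 37 pooled calls that differed between the mutants became 108 with poly-A scaling, 17 with the replicate block and 4 to 14 with 1 array left out. The 35 called list genes became 68 in the 3-group model, 20 with quantile normalization, 71 with poly-A scaling and 8 to 34 with 1 array left out. The causes were not tested.

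Of the 39 called named genes 0 reversed under any alternative run. Quantile normalization ended 16 calls (10 falls and 6 rises), poly-A scaling 11, the block 8 (PR-5, HSC80, JERF1, PDS, TPx1, CycB2, TBG6 and TBG7) and the rule of a call in each mutant 5. Those 5 were HSC80, not called in the psaA deletion, and AGPL3, CycB2, JERF1 and TPx1, not called in the psbA deletion. Quantile normalization was applied to values already centred on the row median. It also made differences smaller, as in GSA-AT (-0.76 to -0.61) and Fad7 (-0.68 to -0.57). The 8 calls that passed with each array left out were ca2, loxC, Aqp2, GS2, PsbQ, CIP2b, SAM1 and GluB. The 2 wild-type arrays limit the precision, and without signal levels dim probe sets cannot be set apart.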
